A study of Mus musculus with 12 samples.

Results

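The NRF2 antioxidant and glutathione genes described here are 10 mouse genes, taken from the 78298 gene rows of the count table by matching their identifiers to the symbols Nfe2l2, Keap1, Nqo1, Hmox1, Gclc, Gclm, Slc7a11, Txnrd1, Srxn1 and Gpx3. All 10 passed the filter on low counts, which 22190 genes passed in all. RNA was sequenced from 12 libraries, 3 in each of 4 groups: normal lung beside the tumour under VEH, the same under HDM, tumour under VEH, and tumour under HDM. HDM is house dust mite, given chronically per the series text, whereas VEH is used as the labels write it, since they do not say what was given. Tumours are called LLC in the labels, an abbreviation left unexplained there, and tumour and normal tissue were separated by hand under a microscope. Strain, age, sex and genotype of the mice are not given in the labels, and the normal tissue came from tumour-bearing lung, so no group here is lung without a tumour. Nothing in the labels says that the 3 libraries of a group came from separate animals, so the p-values measure only the spread between these libraries.

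NRF2, the protein made from Nfe2l2, is a transcription factor that switches on genes against oxidative and electrophilic stress. KEAP1 holds it in the cytoplasm and hands it to the CUL3 ubiquitin ligase for degradation, and modification of cysteines in KEAP1 lets NRF2 escape, enter the nucleus and bind antioxidant response elements together with a small MAF protein. Its targets include the enzymes that make and use glutathione, the thioredoxin system, NQO1 and haem oxygenase. NRF2 is regulated mainly at the level of protein, so the RNA of Nfe2l2 does not report its activity. In lung, airway and alveolar epithelium are rich in these detoxification enzymes, and many lung tumours carry mutations of KEAP1 or NRF2.

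The antioxidant response element has the core TGACNNNGC, or GCNNNGTCA on the other strand. RefSeq promoter windows of 300 bases (250 before to 50 after each transcript start, build GRCm38.p6) were at hand for 8 of the 10 genes, 10 windows in all, and 4 of these windows held the core on one strand or the other. Of all 32851 windows in that table, 12.4% held it. Sequence is shown only for the windows that held the core, all of members whose RNA is compared below, and capitals mark the core. The sequence runs 5′ to 3′ along the gene's own strand, and positions count from the transcript start, taken as 0. In Nfe2l2 (minus strand, chr2:75704664-75704913) the core starts at position -240. In Gclm (plus strand, chr3:122245307-122245556) it starts at -134, and in 1 of the 3 windows of Txnrd1 (plus strand, chr10:82858956-82859205) at -92, both in the reverse orientation. In Srxn1 (plus strand, chr2:152105542-152105571) it lies past the start, at 28, also in reverse, and a piece of 30 bases is shown.
Nfe2l2: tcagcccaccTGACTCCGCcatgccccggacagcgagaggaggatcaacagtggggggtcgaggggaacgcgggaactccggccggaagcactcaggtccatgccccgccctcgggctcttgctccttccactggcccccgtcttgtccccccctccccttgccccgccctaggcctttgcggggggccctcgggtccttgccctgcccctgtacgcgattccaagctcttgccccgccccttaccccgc
Gclm: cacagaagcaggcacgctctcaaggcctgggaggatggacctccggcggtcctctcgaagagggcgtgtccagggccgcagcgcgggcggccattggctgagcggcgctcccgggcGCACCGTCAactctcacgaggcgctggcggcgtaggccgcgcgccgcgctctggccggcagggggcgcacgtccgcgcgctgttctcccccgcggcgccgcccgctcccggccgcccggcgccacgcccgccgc
Txnrd1: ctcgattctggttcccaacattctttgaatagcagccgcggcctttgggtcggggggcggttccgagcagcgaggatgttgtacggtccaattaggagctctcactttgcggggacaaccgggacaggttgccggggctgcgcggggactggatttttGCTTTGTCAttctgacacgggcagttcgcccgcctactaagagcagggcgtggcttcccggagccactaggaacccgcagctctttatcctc
Srxn1: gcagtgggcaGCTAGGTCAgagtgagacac
The windows of Keap1, Nqo1, Slc7a11 and Gpx3 and the other 2 of Txnrd1 did not hold these letters. A match describes the letters only and says nothing of binding, and the absence of a match says only that the core is not in that window.

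Across the members, tissue divided the genes into a group that was lower in tumour, a group that was higher, and a group that did not pass the test. Gpx3, Gclc and Gclm were lower in tumours under both treatments, Srxn1 was higher under both, Nqo1 was lower under VEH, and Hmox1 and Txnrd1 were higher under HDM. Nfe2l2, Keap1 and Slc7a11 passed in neither comparison. Under VEH, 1 of 10 members was higher and 4 were lower by the quasi-likelihood test of edgeR (p adjusted by Benjamini-Hochberg over all genes tested, threshold 0.05), against 18.2% of all genes higher and 20.6% lower. Under HDM, 3 were higher and 3 lower, against 23% and 28.9% of all genes. For both comparisons these shares lie beside a background in which a large part of the transcriptome passed. The median log2 fold change of the members was -0.30 under VEH and -0.15 under HDM, against -0.11 and -0.08 over all genes tested.

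HDM against VEH gave 0 members called in normal lung and 0 in tumours, and the interaction, which asks whether tumour minus normal differs between HDM and VEH, gave 0 as well. The shares of all genes called by edgeR were 0% higher and 0% lower in normal lung, 0.00901% higher and 0.0856% lower in tumours, and 0% in each direction for the interaction. Without adjustment, 1230 genes in normal lung, 3698 in tumours and 2084 for the interaction had a p below 0.05. The Wald test of DESeq2 called 43, 1311 and 222 genes, and of the members it called 1, Hmox1 in tumours.

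Library totals ran from 20608682 to 32765364 counts. Each of 6 library-name prefixes joins 1 normal with 1 tumour library, and for 2 prefixes the pair has conflicting treatment labels (tumour HDM replicate 2 with normal VEH replicate 2, and tumour VEH replicate 3 with normal HDM replicate 3). Each library is used under its own label. Levels of marker genes differed between normal lung and tumour for several cell types. The summed level of 10 airway epithelial markers was 26331 to 116060 CPM in normal libraries, 619 to 22281 in VEH tumours and 19.8 to 1322 in HDM tumours, and that of 10 alveolar epithelial markers was 18378 to 45480, 2481 to 9225 and 109 to 2696. By edgeR, 0 of the 10 airway markers were called under VEH, with log2 fold changes from -3.33 to 4.15, and 7 were lower under HDM. Of the alveolar markers 3 were lower under VEH and 10 under HDM. CPM is the count scaled by the library total after TMM normalisation. The 8 endothelial markers summed to 1300 to 2832 CPM in normal lung and 94.2 to 503 in tumours, and the 8 proliferation markers to 35.2 to 188 and 584 to 1185. The fibroblast and macrophage lists went both ways. Of 8 fibroblast markers, Col3a1, Dcn and Lum rose under both treatments, while Col1a2 and Tcf21 fell under both and Pdgfrb under HDM (edgeR). Of 12 macrophage and monocyte markers 4 were higher and 2 lower under VEH and 3 higher and 3 lower under HDM. C1qa, C1qb and Adgre1 were higher under both and Siglecf, a marker of alveolar macrophages, was lower under both. No alveolar or airway marker was at 0 in every library of a group, and Ccdc153, Muc5b and Sec14l3 were at 0 in at least 1 HDM tumour library. In bulk tissue, fewer cells of a type and less RNA per cell cannot be told apart, and the part of cell makeup in the differences below was not tested.

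**Figure D1:**
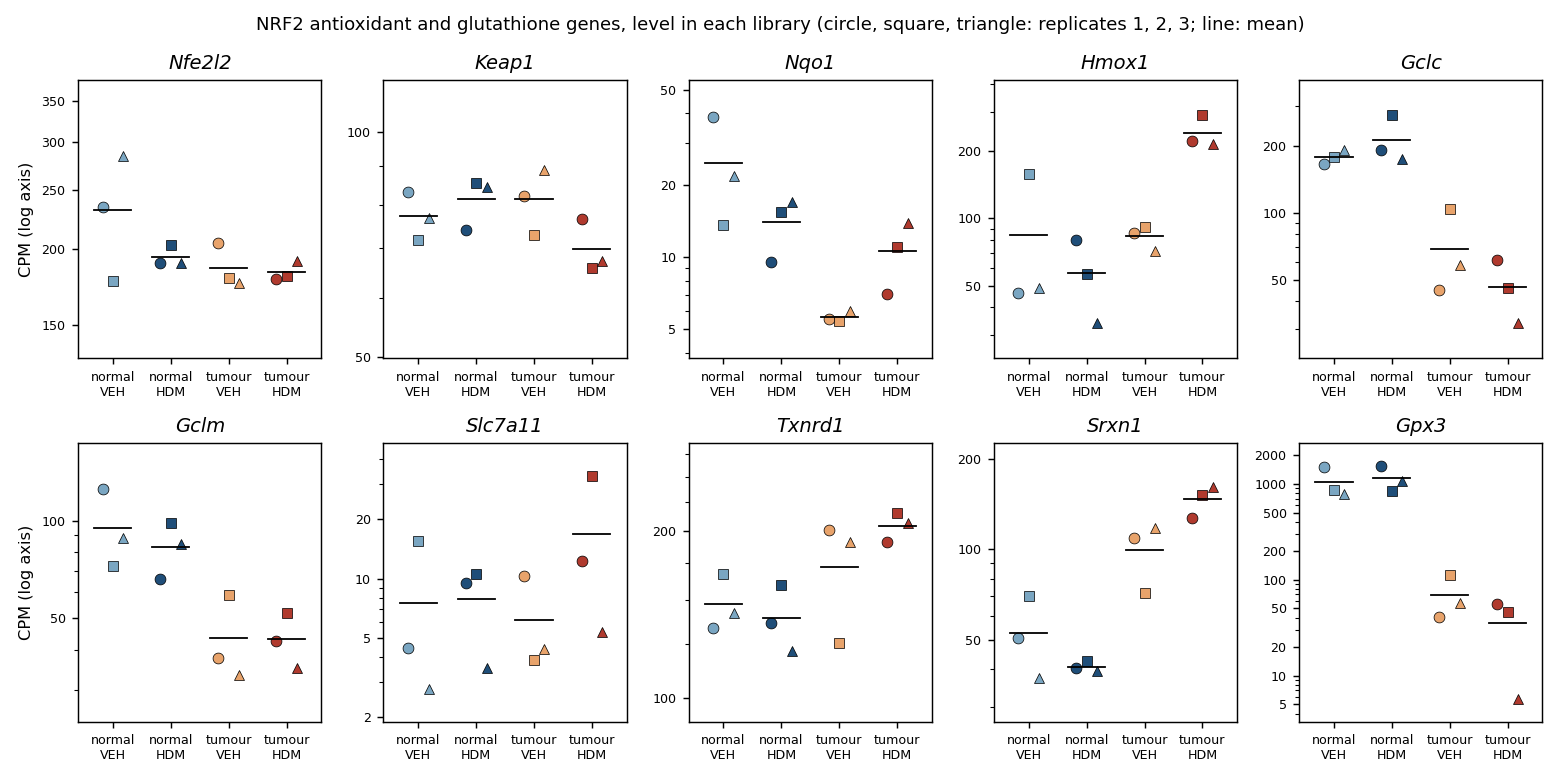
Level of each member in every library, in CPM on log axes that differ between panels, with replicates 1, 2 and 3 as circle, square and triangle and the group mean as a line. Gpx3, Gclc and Gclm lie lower in all tumour libraries than in all normal ones, and Srxn1 lies higher.

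Nfe2l2 (ENSMUSG00000015839, chromosome 2, 75504739 to 75534985 on GRCm39, minus strand) encodes the factor itself. Its level in normal lung was 234, 177 and 285 CPM in VEH replicates 1, 2 and 3 and 190, 203 and 189 CPM in HDM. In tumours it was 204, 179 and 176 CPM under VEH and 178, 180 and 191 CPM under HDM. The spans of all 4 groups overlapped, and normal VEH replicates 1 and 3 stood above the other libraries. The log2 fold change of tumour against normal was -0.31 ± 0.16 under VEH (SE, edgeR adjusted p 0.137) and -0.08 ± 0.16 under HDM (adjusted p 0.684). Without normal VEH replicate 2 the VEH value was -0.47 and passed (edgeR adjusted p 0.022).

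Keap1 (ENSMUSG00000003308, chromosome 9, 21141026 to 21150679, minus strand) encodes the cysteine-rich sensor that holds NRF2. Its counts, 24319 over all libraries, may include reads of Gm16754 (8494) and Gm68155 (5738) on the opposite strand, since the strand setting of the counting is not stated. Normal lung had 83.1, 71.7 and 76.7 CPM under VEH and 73.9, 85.6 and 84.4 CPM under HDM, and tumours had 82.2, 72.9 and 89.1 CPM under VEH and 76.6, 65.7 and 67.1 CPM under HDM. The spans of the groups overlapped in each comparison. Log2 fold changes of tumour against normal were 0.08 ± 0.12 under VEH (edgeR adjusted p 0.635) and -0.22 ± 0.12 under HDM (adjusted p 0.159). With at least 10 counts required in every library, the HDM difference was -0.36 and passed (edgeR adjusted p 0.0325). The ratio of Nfe2l2 to Keap1, per length of each gene, was 2.44 to 4.59 over the 12 libraries, and both ends of that range fell in VEH libraries.

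The 13 other regulators of NRF2 listed around this pair include its DNA-binding partners and competitors. Under VEH 2 were higher and 3 lower in tumour, with a median of -0.09, and under HDM 3 were higher and 3 lower, with a median of -0.01. Of all genes tested, 18.2% were higher and 20.6% lower under VEH, and 23% and 28.9% under HDM. The counts of the regulators lie near these shares. The same shares are the background for the counts of every other list in tumour against normal. The small MAF proteins, which pair with NRF2 on DNA, did not share a direction. Mafk fell by 0.79 ± 0.18 and 1.14 ± 0.18 on the log2 scale under VEH and HDM (edgeR adjusted p 0.00619 and 0.000585) and Maff fell by 0.61 ± 0.19 and 0.93 ± 0.20 (adjusted p 0.031 and 0.00287), whereas Mafg rose by 0.95 ± 0.20 under HDM (adjusted p 0.00292; 0.43 ± 0.20 under VEH, adjusted p 0.107). Bach2, a repressor that competes for such elements, fell by 1.45 ± 0.42 and 2.30 ± 0.43 (adjusted p 0.021 and 0.00163), and its relative Bach1 had -0.67 ± 0.29 and -0.02 ± 0.29 (adjusted p 0.0848 and 0.966). Among the proteins that act on NRF2 stability, Cul3, the ligase scaffold, rose by 0.44 ± 0.13 under HDM (adjusted p 0.0146), and Dpp3, a peptidase that binds KEAP1, rose by 0.70 ± 0.18 and 0.58 ± 0.18 (adjusted p 0.0116 and 0.0185). Btrc, an adaptor of another ligase that can target NRF2, rose by 0.56 ± 0.17 under VEH (adjusted p 0.0226).

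Glutathione is made from cystine-derived cysteine, glutamate and glycine. Slc7a11 (ENSMUSG00000027737, chromosome 3, 49846975 to 50398070, minus strand) encodes the light chain of the cystine importer. It was the member with the lowest level per length in every group, with a mean of 0.44 to 1.21 RPKM, where RPKM divides the CPM by the deposited gene length in kilobases. Its CPM in normal lung was 4.44, 15.4 and 2.78 under VEH and 9.50, 10.6 and 3.54 under HDM. In tumours it was 10.3, 3.87 and 4.38 under VEH and 12.3, 32.9 and 5.40 under HDM. Single libraries stood out in 2 groups, normal VEH replicate 2 and tumour HDM replicate 2, which carry the same library-name prefix, and all groups overlapped. Log2 fold changes of tumour against normal were -0.29 ± 0.78 under VEH and 1.10 ± 0.79 under HDM (edgeR adjusted p 0.781 and 0.263), and without the 4 libraries of conflicting prefixes they were 1.07 and -0.07, so the sign of both turned. Without tumour HDM replicate 2 alone the HDM value was 0.29.

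Gclc (ENSMUSG00000032350, chromosome 9, 77661797 to 77701770, plus strand) encodes the catalytic subunit of glutamate-cysteine ligase, the rate-limiting enzyme of glutathione synthesis. Normal lung had 165, 177 and 191 CPM under VEH and 190, 273 and 173 CPM under HDM. Tumours had 44.7, 104 and 58.1 CPM under VEH and 61.5, 45.7 and 32 CPM under HDM. Every tumour library lay below every normal library, and tumour VEH replicate 2 was nearest to normal. Gclc fell by 1.37 ± 0.32 on the log2 scale under VEH (edgeR adjusted p 0.00823) and by 2.19 ± 0.33 under HDM (adjusted p 0.00051). The VEH call was lost without the 4 libraries of conflicting prefixes, at -1.16 (edgeR adjusted p 0.119).

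Gclm (ENSMUSG00000028124, chromosome 3, 122039126 to 122065061, plus strand) encodes the modifier subunit, which raises the efficiency of the catalytic one, and carries the response element core in the window printed above. Its CPM was 125, 72.3 and 88.2 in normal VEH and 65.9, 97.9 and 84.4 in normal HDM libraries. In tumours it was 37.7, 59.0 and 33.3 under VEH and 42.6, 51.8 and 35.1 under HDM. The tumour libraries again lay below all normal ones. The fall was 1.13 ± 0.27 on the log2 scale under VEH, with an edgeR adjusted p of 0.0086. Under HDM Gclm fell by 0.94 ± 0.27 (edgeR adjusted p 0.0139). The VEH call was lost without tumour VEH replicate 3 (adjusted p 0.051), and the HDM call without any one of normal HDM replicates 2 and 3 and tumour HDM replicates 1 and 3 (adjusted p 0.0526 to 0.0894 by edgeR). Per length, Gclc stood 2.21 to 4.83 times above Gclm in normal libraries and 1.48 to 2.94 times in tumours, with overlap between the tissues.

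The list of 18 genes for glutathione synthesis and turnover, which holds Slc7a11, Gclc and Gclm, moved downward in more members than upward. Under VEH 0 were higher and 7 lower (median -0.85), and under HDM 1 was higher and 8 lower (median -0.98). Slc3a2, the heavy chain that partners the cystine importer, fell by 0.80 ± 0.16 under VEH and 1.04 ± 0.16 under HDM (edgeR adjusted p 0.00377 and 0.000571). Gss, which adds glycine in the second step and is named for that place after its values were seen, fell by 1.05 ± 0.27 and 1.02 ± 0.27 (adjusted p 0.0113 and 0.00882). Dpep1, a dipeptidase that breaks down cysteinylglycine, fell by 4.27 ± 0.87 and 7.09 ± 1.02 (adjusted p 0.00439 and 0.000434). Its level in the HDM tumours was 1.15, 0.888 and 0.0607 CPM. Of the pair of enzymes that turn homocysteine toward cysteine, Cbs fell by 3.74 ± 1.18 under VEH (adjusted p 0.0299). This is a fit near 0 counts, with 0, 2.23 and 0.185 CPM in the VEH tumours. In every HDM tumour Cbs had 3 counts or fewer, which puts it at least 95.3-fold lower there against a floor of 3 counts per library. Cth fell by 1.80 ± 0.57 under VEH (adjusted p 0.0299). Ggt1, which splits extracellular glutathione, fell by 4.42 ± 1.44 under HDM (adjusted p 0.0246), a fit near 0 counts, with 0, 0.205 and 0 CPM in the HDM tumours. The gene that rose under HDM was Abcc1, an exporter of glutathione and its conjugates, at 1.07 ± 0.22 (adjusted p 0.0024).

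Gpx3 (ENSMUSG00000018339, chromosome 11, 54793279 to 54802424, plus strand) encodes the secreted glutathione peroxidase, a selenoprotein that reduces peroxides outside cells. Normal lung had 1477, 864 and 772 CPM under VEH and 1542, 844 and 1065 CPM under HDM. Tumours had 41.0, 111 and 56.5 CPM under VEH and 55.4, 45.5 and 5.67 CPM under HDM. The groups of different tissue did not come near one another, and tumour HDM replicate 3 stood far below the other tumours. Gpx3 fell by 3.90 ± 0.74 on the log2 scale under VEH, with an edgeR adjusted p of 0.00319. Under HDM it fell by 5.02 ± 0.78 (edgeR adjusted p 0.00067), the largest change of any member, and by 4.38 without tumour HDM replicate 3. Without the 4 libraries of conflicting prefixes the VEH value was -3.79 and did not pass (edgeR adjusted p 0.0636). Gpx3 took 46.4% to 66% of all counts of the 10 genes in normal libraries and 0.607% to 13.5% in tumours. Tnip1 on the opposite strand overlaps it, with 14197 counts against 178724 for Gpx3.

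Among the 13 peroxidases, peroxiredoxins and catalase, Gpx3 included, 1 was higher and 5 lower under VEH (median -0.49) and 2 higher and 7 lower under HDM (median -0.60). Other glutathione peroxidases went the same way where they passed. Gpx7, an endoplasmic reticulum form, fell by 2.30 ± 0.42 and 2.91 ± 0.43 under VEH and HDM (edgeR adjusted p 0.00232 and 0.000449), and Gpx4, which protects membrane lipids, fell by 0.80 ± 0.22 and 0.69 ± 0.22 (adjusted p 0.0149 and 0.0198). Gpx1, the abundant cytosolic form, fell by 0.60 ± 0.22 under HDM (adjusted p 0.039), and Gpx2, an epithelial form, by 5.55 ± 1.42 (adjusted p 0.00854). Cat, which breaks down hydrogen peroxide, fell by 2.64 ± 0.43 and 3.37 ± 0.44 (adjusted p 0.00152 and 0.000284), and Prdx6, a peroxiredoxin of lung epithelium, by 2.33 ± 0.26 and 2.65 ± 0.26 (adjusted p 0.000346 and 9.78e-05). The peroxiredoxin of the endoplasmic reticulum, Prdx4, rose by 1.72 ± 0.21 and 1.40 ± 0.20 (adjusted p 0.000445 and 0.000432). Prdx2 rose by 0.64 ± 0.17 under HDM (adjusted p 0.00909).

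**Figure D2:**
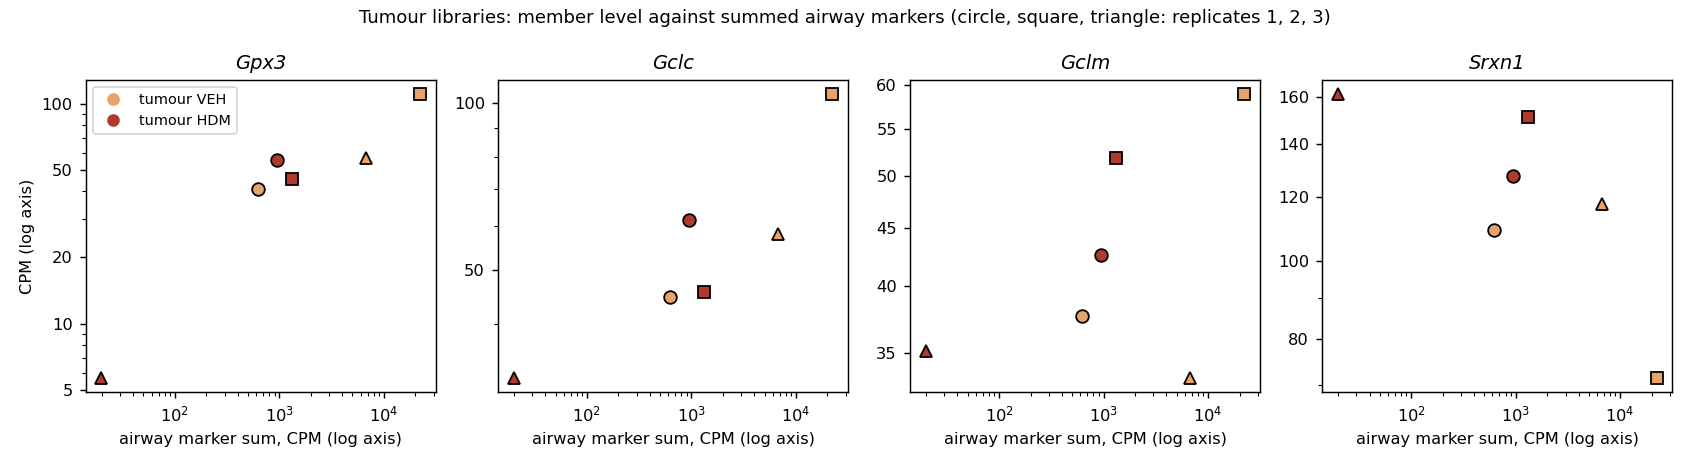
Level of Gpx3, Gclc, Gclm and Srxn1 against the summed level of 10 airway epithelial markers in the 6 tumour libraries, both in CPM on log axes. Tumour VEH replicate 2 has the highest marker sum (22281 CPM) and the highest Gpx3, Gclc and Gclm of the tumours, and tumour HDM replicate 3 has the lowest sum (19.8 CPM) and the lowest Gpx3 and Gclc. Gclm is lowest in tumour VEH replicate 3. In the libraries between, no gene shown keeps the order of the marker sum throughout.

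Within the tumours, the airway marker sum was 619, 22281 and 6771 CPM in VEH replicates 1, 2 and 3 and 953, 1322 and 19.8 CPM in HDM replicates 1, 2 and 3. The library with most airway RNA, VEH replicate 2, had the highest Gpx3, Gclc and Gclm and the lowest Srxn1 of the 6. The library with least, HDM replicate 3, had the lowest Gpx3 and Gclc and the highest Srxn1. The lowest level of Gclm, 33.3 CPM, was instead in VEH replicate 3 with an airway sum of 6771 CPM. Alveolar markers were highest in VEH replicate 2 and lowest in HDM replicate 3, at 9225 and 109 CPM. Between these ends the airway sum rose from VEH replicate 1 through HDM replicates 1 and 2 to VEH replicate 3. In that order Gpx3 had 41.0, 55.4, 45.5 and 56.5 CPM, and Gclc 44.7, 61.5, 45.7 and 58.1 CPM. Srxn1 had 109, 128, 151 and 118 CPM. None of these genes kept the order of the airway sum throughout. Each of these member levels was read from the same libraries as the markers, and the part of leftover epithelium in them was not tested.

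Of the members that serve thioredoxin and its peroxiredoxin partners, Srxn1 was higher in tumours under both treatments and Txnrd1 under HDM. Txnrd1 (ENSMUSG00000020250, chromosome 10, 82669785 to 82733546, plus strand) encodes the cytosolic thioredoxin reductase, which uses NADPH to keep thioredoxin reduced. Its level was 133, 167 and 142 CPM in normal VEH and 136, 160 and 121 CPM in normal HDM libraries. In tumours it was 201, 126 and 191 CPM under VEH and 191, 215 and 206 CPM under HDM. HDM tumours lay above all normal libraries, whereas tumour VEH replicate 2 lay among them. Txnrd1 rose by 0.55 ± 0.18 on the log2 scale under HDM (edgeR adjusted p 0.0277), and the VEH value was 0.22 ± 0.18 (adjusted p 0.343). The HDM call was lost without normal HDM replicate 1 (adjusted p 0.074), without the 4 libraries of conflicting prefixes (0.109) and with at least 10 counts required in every library (0.0647, edgeR in each case).

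Srxn1 (ENSMUSG00000032802, chromosome 2, 151947436 to 151957687, plus strand) encodes sulfiredoxin, which repairs overoxidised peroxiredoxins. Normal lung had 50.9, 69.8 and 37.4 CPM under VEH and 40.3, 42.6 and 39.4 CPM under HDM. Tumours had 109, 71.5 and 118 CPM under VEH and 128, 151 and 162 CPM under HDM. All tumour libraries were above all normal libraries, though tumour VEH replicate 2 exceeded normal VEH replicate 2 by little. Srxn1 rose by 0.92 ± 0.23 on the log2 scale under VEH (edgeR adjusted p 0.012) and by 1.85 ± 0.24 under HDM (adjusted p 0.000252). Both calls held in every alternative run. The gene 9230118N01Rik on the opposite strand had 2672 counts against 27437 for Srxn1. Per length, the ratio of Srxn1 to Gclc was 0.208 to 0.526 in normal libraries and 0.921 to 6.74 in tumours, with no overlap.

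In the list of 10 genes of the thioredoxin system and superoxide dismutases, which holds Txnrd1 and Srxn1, 3 were higher and 5 lower under VEH (median -0.25) and 5 were higher and 5 lower under HDM (median -0.11). The genes that rose were Srxn1, thioredoxins and, under HDM, reductases. Txn1, the cytosolic thioredoxin, rose by 0.66 ± 0.17 and 0.72 ± 0.17 (edgeR adjusted p 0.012 and 0.0054) and the mitochondrial Txn2 by 0.62 ± 0.13 and 0.38 ± 0.12 (adjusted p 0.00395 and 0.0247), while the mitochondrial reductase Txnrd2 rose by 0.89 ± 0.22 under HDM (adjusted p 0.00622). Txnrd3, the testis-rich paralog of Txnrd1, fell by 1.17 ± 0.23 and 1.12 ± 0.23 (adjusted p 0.00364 and 0.00271). Txnip, which inhibits thioredoxin, fell by 1.49 ± 0.26 and 1.20 ± 0.26 (adjusted p 0.00197 and 0.0034). The cytosolic and extracellular superoxide dismutases Sod1 and Sod3 fell by 1.46 ± 0.21 and 3.33 ± 0.94 under VEH (adjusted p 0.000807 and 0.0191) and by 1.55 ± 0.21 and 4.59 ± 1.00 under HDM (adjusted p 0.000297 and 0.00376).

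**Figure D3:**
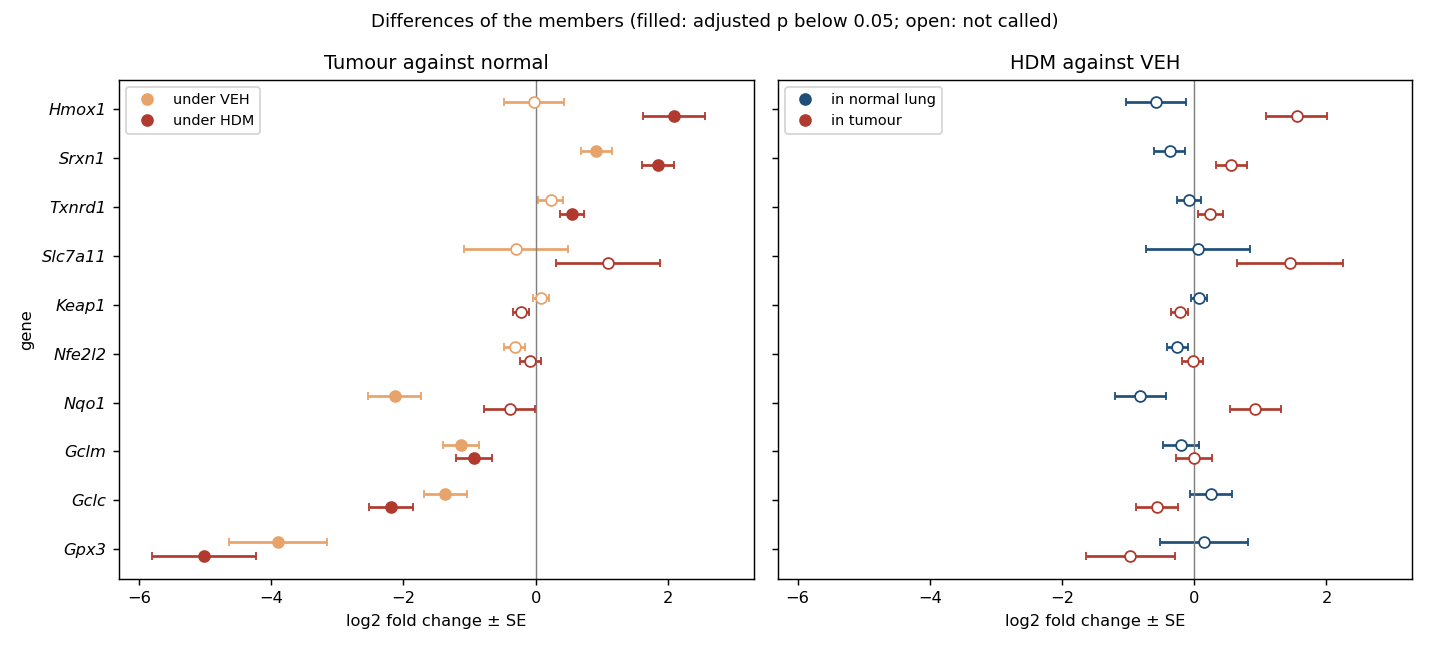
Log2 fold change ± SE of the 10 members for tumour against normal (left) and HDM against VEH (right), with filled points for an edgeR adjusted p below 0.05. Gpx3, Gclc and Gclm lie to the left and Srxn1 to the right under both treatments, and no point of the right panel is filled.

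Nqo1 (ENSMUSG00000003849, chromosome 8, 108113835 to 108129934, minus strand) encodes the quinone reductase most often read as a marker of NRF2 activity. Normal lung had 38.6, 13.7 and 21.9 CPM under VEH and 9.58, 15.6 and 17.0 CPM under HDM. Tumours had 5.52, 5.43 and 5.95 CPM under VEH and 7.02, 11.03 and 13.98 CPM under HDM. VEH tumours were the lowest group and agreed closely among themselves, and HDM tumours lay above them but overlapped normal HDM lung. Nqo1 fell by 2.13 ± 0.40 on the log2 scale under VEH (edgeR adjusted p 0.00265), and under HDM the value was -0.40 ± 0.38 (adjusted p 0.405). The interaction was 1.74 ± 0.54, with an unadjusted p of 0.00857 and an edgeR adjusted p of 0.478, so a difference between the treatments was not established over all genes tested.

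Hmox1 (ENSMUSG00000005413, chromosome 8, 75820241 to 75827217, plus strand) encodes haem oxygenase 1, which breaks haem into biliverdin, iron and carbon monoxide. Normal lung had 46.4, 159 and 48.8 CPM under VEH and 80.1, 56.6 and 34.1 CPM under HDM. Tumours had 85.9, 91.8 and 71.7 CPM under VEH and 223, 290 and 216 CPM under HDM. The HDM tumours stood above the other 9 libraries, and normal VEH replicate 2 stood above the other normal and the VEH tumour libraries. Hmox1 rose by 2.09 ± 0.47 on the log2 scale in tumour against normal under HDM (edgeR adjusted p 0.00439). Under VEH the value was -0.02 ± 0.45 (adjusted p 0.968), and without normal VEH replicate 2 it was 0.81 (adjusted p 0.0558), or 1.00 without the 4 libraries of conflicting prefixes, where it passed (edgeR adjusted p 0.0178). Normal VEH replicate 2 also had more macrophage and monocyte marker RNA (12 genes, 16895 CPM) than normal VEH replicates 1 and 3 (2847 and 6817 CPM), a higher neutrophil sum (6 genes, 820 CPM against 41.7 and 18.7) and a higher sum of 8 proliferation markers (188 CPM against 39 and 35.2). Chil3 and Lyz2 made up most of its macrophage sum, at 7313 and 8790 CPM. Macrophage sums were 18142 to 20296 CPM in normal HDM replicates 1 and 2 and 2382 to 4462 CPM in tumours, where C1qa had a mean of 347 CPM under VEH and 215 CPM under HDM against 62.0 and 59.0 CPM in normal lung, and Mrc1 had 45.8 and 196 CPM against 95.4 and 136 CPM. The part of these cells in the level of Hmox1 was not tested.

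In tumours the median of HDM against VEH over the 10 members was 0.12, against -0.03 over all genes. Hmox1 was the member with the largest difference between HDM and VEH tumours that had no overlap between the groups. That log2 fold change was 1.55 ± 0.46, with an unadjusted p of 0.00693 and an edgeR adjusted p of 0.193. DESeq2 gave 1.52 and called it (adjusted p 0.0306), whereas with a block for library-name prefix the value was 0.30 by edgeR, the lowest of any alternative. Nqo1, at 0.92 ± 0.39 (edgeR adjusted p 0.272), and Srxn1, at 0.56 ± 0.23 (adjusted p 0.27), were higher in all 3 HDM than in all 3 VEH tumours as well, so 3 of 10 members did not overlap, against 22% of all genes in either direction. In tumour against normal the libraries did not overlap for 52.4% of all genes under VEH and 63.1% under HDM, and in HDM against VEH of normal lung for 10.3%. The interactions of Hmox1 and Srxn1 were 2.12 ± 0.65 and 0.93 ± 0.33, with unadjusted p of 0.00781 and 0.0167 and edgeR adjusted p of 0.478 and 0.493. That of Hmox1 was 1.29 without normal VEH replicate 2 and 0.78 without the 4 libraries of conflicting prefixes. Slc7a11 had 1.45 ± 0.80 for HDM against VEH in tumours (edgeR adjusted p 0.385), with overlap, and 0.53 without tumour HDM replicate 2. In the same comparison Gpx3 had -0.97 ± 0.67 (adjusted p 0.489) and Gclc -0.57 ± 0.32 (adjusted p 0.391).

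In normal lung, no member passed the test of HDM against VEH, and the median over the 10 was -0.14, against -0.01 over all genes. Nqo1 had the largest value, -0.81 ± 0.38 (edgeR adjusted p 0.887), and Hmox1 had -0.57 ± 0.45 (adjusted p 0.957), which became 0.26 without normal VEH replicate 2. Gclc and Gpx3 had 0.26 ± 0.32 and 0.15 ± 0.66 (edgeR adjusted p 1 for both). Gclm had -0.20 ± 0.27 (adjusted p 1), and Slc7a11, with the widest error of the members, 0.06 ± 0.78.

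**Figure D4:**
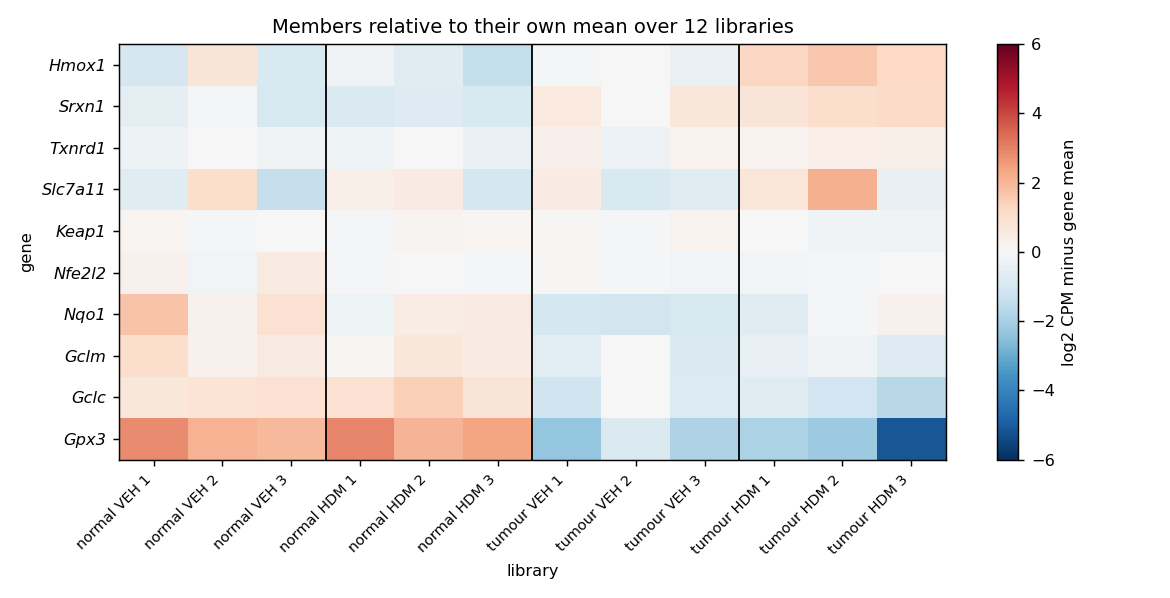
Log2 CPM of each member minus its own mean over the 12 libraries (colour, from -6 to 6), with black lines between the 4 groups. The lower rows (Gpx3, Gclc, Gclm, Nqo1) are above their mean in most normal libraries and below it in most tumours, and the upper rows (Hmox1, Srxn1) are highest in HDM tumours.

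The order of the members by level per length changed between tissues. In normal lung Gpx3 led with a mean of 572 RPKM under VEH and 635 RPKM under HDM, with no overlap with the next gene, and Nfe2l2, Hmox1 and Gclc followed with overlapping ranges under VEH (61.1, 48.3 and 47.2 RPKM). In VEH tumours Nfe2l2, Hmox1, Gpx3 and Srxn1 had 49.1, 47.5, 38.3 and 35.3 RPKM, and each overlapped with the next. In HDM tumours Hmox1 led with 139 RPKM and stood clear of Srxn1 (52.1) and Nfe2l2 (48.3), which overlapped. Nqo1 (3.63 RPKM) was below Gclm (6.88 RPKM) in VEH tumours without overlap, whereas in HDM tumours they had 6.88 and 6.86 RPKM.

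Downstream of the members, the glutathione S-transferases, which couple glutathione to electrophiles, were lower in tumours. Of 22 genes 21 were tested, and 0 were higher and 17 lower under each treatment, with a median log2 fold change of -2.32 under VEH and -3.73 under HDM, or -3.50 when the 3 genes near 0 counts are placed at their bounds. Gsta2, Gsta3 and Gstk1 fell most under VEH, by 4.74 ± 1.60, 3.81 ± 1.01 and 2.98 ± 0.68 (edgeR adjusted p 0.0454, 0.015 and 0.00763). Gsta2 had 0, 1.64 and 0 CPM in the VEH tumours, so its value is a fit near 0 counts. Under HDM, Gsta2, Gstm6 and Gstm3 had 3 counts or fewer in every tumour library, at least 65.4-fold, 62.8-fold and 5.53-fold lower than in normal lung. Gsta3 and Gstk1 fell by 6.63 ± 1.17 and 4.67 ± 0.75 there (adjusted p 0.00128 and 0.000762). The genes of this family are near-identical in places, so reads may be divided among them. Airway and alveolar epithelium express many of them, and the marker sums of both types, given above, were lower in the same libraries. Of the single markers, 0 of 10 airway and 3 of 10 alveolar ones were called lower under VEH by edgeR. The part of these cells in the levels of the transferases was not tested.

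Of 18 detoxification enzymes and exporters with reported NRF2 control, 17 were tested, Nqo1 among them, and 2 were higher and 8 lower under VEH (median -1.64) and 4 higher and 8 lower under HDM (median -0.96). Ephx1, the microsomal epoxide hydrolase, fell by 2.60 ± 0.50 and 4.06 ± 0.54 (edgeR adjusted p 0.00334 and 0.000296), and Abcc3, an exporter of conjugates, fell by 2.28 ± 0.41 and 2.47 ± 0.42 (adjusted p 0.00248 and 0.000937). The aldehyde dehydrogenases Aldh3a1 and Aldh1a1 fell by 8.16 ± 1.38 and 6.40 ± 1.47 under HDM (adjusted p 0.000998 and 0.00495). Aldh3a1 had 0.246, 0.205 and 0 CPM in the HDM tumours, so its value is a fit near 0 counts. Ugdh, which makes the sugar donor for glucuronidation, rose by 0.76 ± 0.21 and 1.49 ± 0.21 (adjusted p 0.0155 and 0.000374). Akr1b8, an aldo-keto reductase, rose by 1.37 ± 0.36 under HDM and Esd, an esterase, by 1.12 ± 0.25 (adjusted p 0.00874 and 0.00402). Abcc4, another exporter, rose by 0.74 ± 0.26 and 0.85 ± 0.26 (adjusted p 0.0437 and 0.0187). Nqo2, the paralog of Nqo1, had 0.44 ± 0.22 and 0.52 ± 0.22 (adjusted p 0.127 and 0.0669).

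Of 14 genes of haem and iron handling, 13 were tested, Hmox1 among them, with 0 higher and 2 lower under VEH (median -0.72) and 1 higher and 4 lower under HDM (median -0.04), where the gene that rose was Hmox1. Its constitutive paralog Hmox2 had 0.03 ± 0.15 and -0.04 ± 0.15 (edgeR adjusted p 0.892 and 0.857), and Cdip1 on the opposite strand had 18803 counts against 18048 for Hmox2. Alas1, the first enzyme of haem synthesis, fell by 2.60 ± 0.54 and 3.42 ± 0.56 (adjusted p 0.0047 and 0.000846). Hpx, which carries haem in plasma, fell by 2.96 ± 0.56 and 4.25 ± 0.60 (adjusted p 0.00294 and 0.000372), and Hp, which binds free haemoglobin, fell by 4.63 ± 1.04 under HDM (adjusted p 0.00443). The level of Hpx was low throughout, at 1.20 to 2.64 CPM in normal libraries and 0.068 to 0.297 CPM in tumours. The 7 erythroid markers summed to 959 to 3300 CPM in normal lung and 127 to 959 CPM in tumours.

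**Figure D5:**
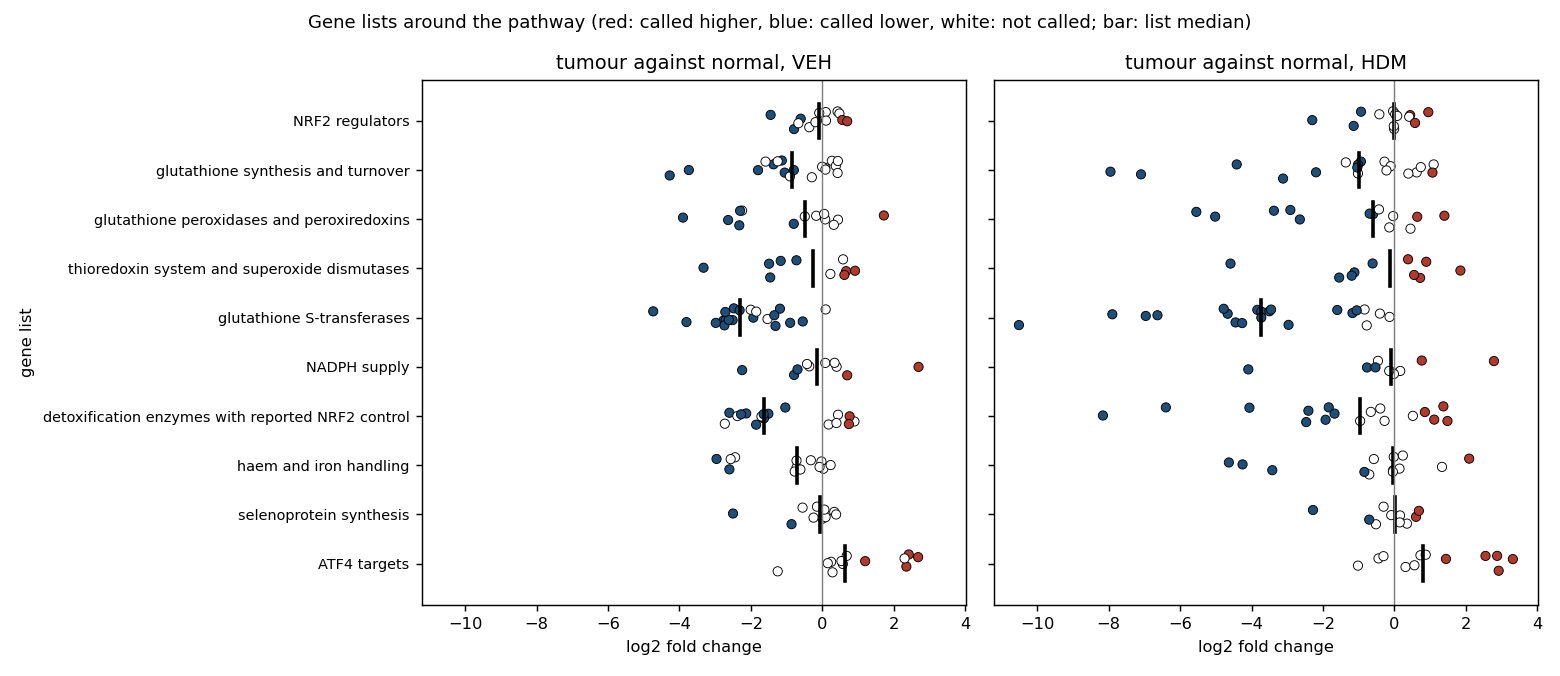
Log2 fold change of each tested gene of 10 lists around the pathway, members included, for tumour against normal under VEH (left) and HDM (right), with red for called higher, blue for called lower, white for not called and a bar at the list median. Values of genes at or near 0 counts in tumours are fitted values and no bound. The glutathione S-transferases lie almost wholly below 0, and the called ATF4 targets all lie above it.

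All 10 lists had 0 genes called by edgeR in HDM against VEH of normal lung, in HDM against VEH of tumours and in the interaction.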

How the data were processed

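The authors deposited raw counts for 12 libraries, by Ensembl gene and with gene lengths, per the file headers. Libraries were stranded (dUTP) and read from both ends, per the labels' protocols, which do not settle between poly(A) selection and ribosomal RNA depletion. The submitters' processing notes name STAR, Trim Galore, featureCounts, Subread and mm39. The strand setting of the counting is not given in the sources used here. Of 78298 identifiers 78168 occur in GENCODE M39 (GRCm39), which supplied symbols and coordinates. The 130 others held 0.143% of counts.

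Counts were tested in R 4.3.3 with edgeR 4.0.16 (filterByExpr with a minimum count of 10, TMM, robust quasi-likelihood F-test, two-sided, 4 group means over 12 libraries, 5 comparisons, Benjamini-Hochberg). SE is the log2 fold change over the square root of F. Members and lists were chosen with earlier results of these data known. All members are named, and of each list up to 3 rising and 3 falling called genes with the largest change, plus partners and paralogs of members. Alternatives were DESeq2 1.42.0, other scalings and filters, blocks, and libraries left out. Replicate numbers and library-name prefixes do not pair the groups the same way, so no block entered the main fits. Pairing of the libraries is not excluded by this. The script was tested on simulated counts.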

Additional observations from a re-analysis of the deposited data

How the results depend on the processing

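Over the alternatives, counted per member and setting, 186 of 210 values of tumour against normal under VEH kept direction and side of the threshold, as did 191 of 210 under HDM, 196 of 210 for HDM against VEH in normal lung, 196 of 210 in tumours and 197 of 200 for the interaction. Scaling by library size alone moved the median of all genes from -0.11 to 0.03 under VEH and from -0.08 to 0.10 under HDM, so small changes are relative to it, and it turned Hmox1 under VEH to 0.082, Nfe2l2 under HDM to 0.093, and, for HDM against VEH in tumours, Gclm to 0.087 and Nfe2l2 to 0.065. The genes called then split into 4797 higher and 3910 lower under VEH, and 6161 higher and 5723 lower under HDM, against 4045 and 4579, and 5110 and 6402, with TMM. Slc7a11 had the lowest level per length of the members, with under 33 CPM in every library, and its SE, like that of Gpx3, was among the widest. The cause of the shifts below was not tested, apart from fewer libraries where some were left out.

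Libraries that share a replicate number in the labels correlated at -0.355 to 0.303 (8 of 18 pairs above 0.1). Those that share a prefix correlated at -0.219 to 0.179 (3 of 6 above 0.1). These values are correlations over genes of deviations from group means. No value for unpaired libraries stands beside them, so they do not settle whether libraries are paired. With the replicate block, Hmox1 under VEH was 0.12, Slc7a11 under VEH 0.12 and Gclm in HDM against VEH of tumours 0.0080, and 1 gene was called in the last comparison, against 21; it called 5 and 6 members in tumour against normal, as without the block. With the library-name prefix block, tumour against normal under VEH gave 0.79 for Hmox1, which passed (edgeR adjusted p 0.0329), 0.99 for Slc7a11 and -0.0196 for Keap1. Gpx3 then had -3.73 (edgeR adjusted p 0.0671) and, under HDM, Txnrd1 0.49 (adjusted p 0.111) and Slc7a11 -0.15. HDM against VEH gave 0.38 for Gclm and -0.049 for Keap1 in normal lung, and 0.48 for Gclm, 0.24 for Nfe2l2, -0.18 for Slc7a11 and -0.034 for Txnrd1 in tumours, where 0 genes were called. The interaction of Slc7a11 was -1.15.

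Without the 4 libraries of conflicting prefixes, VEH gave 1.00 for Hmox1 and 1.07 for Slc7a11 with 5603 genes called against 8624, and HDM gave 0.012 for Nfe2l2 and -0.065 for Slc7a11. HDM against VEH gave 0.53 for Hmox1, -0.00069 for Keap1 and 0.11 for Txnrd1 in normal lung, 0 genes called in tumours, and -1.14 for the interaction of Slc7a11. Under VEH, Hmox1 was 0.0185 without the low-count filter and 0.0012 with only the compared groups fitted, and Keap1 was -0.0059 with at least 10 counts in every library. Gclm in HDM against VEH of tumours was 0.0047 with only the compared groups. In that comparison 53 genes were called with the stricter filter, 52 with none, 8 under library size, 0 with only the compared groups and 1311 by DESeq2, which called 1 member. DESeq2 called 43 genes in normal lung and 222 for the interaction.

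With 1 library left out in turn, Hmox1 ran from -0.32 to 0.81 under VEH and from -0.90 to 0.26 in normal lung, Slc7a11 from -0.79 to 0.78 under VEH and from -0.34 to 1.13 in normal lung, and Nfe2l2 from -0.10 to 0.046 under HDM and from -0.055 to 0.047 in HDM against VEH of tumours. Gclm ran from -0.36 to 0.044 in normal lung, from -0.15 to 0.28 in tumours and from -0.0499 to 0.48 in the interaction, Gpx3 from -0.12 to 0.49 and Txnrd1 from -0.20 to 0.0175 in normal lung. Genes called ran from 5733 (without tumour VEH replicate 1) to 9070 under VEH, from 0 (without normal VEH replicate 3) to 24 for HDM against VEH in tumours, and from 0 to 6 (without tumour HDM replicate 3) for the interaction.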

Other observations

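Next to the glutathione genes, several targets of ATF4 in serine and one-carbon metabolism were higher in tumours. ATF4 is a stress-induced factor that also drives Slc7a11. Of 12 genes on the ATF4 list, Atf4 itself among them, 4 were higher and 0 lower under VEH (median log2 fold change 0.63). Under HDM 5 were higher and 0 lower (median 0.80). Of all genes, 18.2% were higher and 20.6% lower under VEH, and 23% and 28.9% under HDM. Atf4, Ddit3, Trib3, Chac1, Sesn2, Ddit4 and Atf3 were called under neither treatment. Chac1 had a lower mean in tumours, 1.67 against 3.98 CPM under VEH and 1.49 against 3.02 CPM under HDM. Phgdh, Psat1 and Shmt2, enzymes of serine and glycine synthesis, rose by 2.68 ± 0.66, 2.42 ± 0.42 and 2.35 ± 0.34 under VEH (edgeR adjusted p 0.0108, 0.00212 and 0.000834). Under HDM Phgdh, Psat1 and Shmt2 rose by 2.55 ± 0.66, 2.92 ± 0.43 and 2.88 ± 0.34 (adjusted p 0.00891, 0.000501 and 0.000182), and the amino acid transporter Slc7a5 rose by 3.32 ± 0.92 (adjusted p 0.0125). Proliferation markers were higher in the same libraries, and in normal VEH replicate 2 among the normal ones, and their part was not tested.

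NADPH, the electron donor for glutathione and thioredoxin reductases, comes from several enzymes. The 10 genes listed around its supply include Pgls, Taldo1 and Tkt, which do not make NADPH themselves. Of the 10 genes, 2 were higher and 3 lower under each treatment (medians -0.14 and -0.10). The shares of all genes were 18.2% higher and 20.6% lower under VEH, and 23% and 28.9% under HDM. The mitochondrial folate enzyme Mthfd2 rose by 2.69 ± 0.52 and 2.79 ± 0.52 (edgeR adjusted p 0.00337 and 0.00176), while the cytosolic Aldh1l1, which works on the same carbon unit, fell by 2.25 ± 0.56 and 4.09 ± 0.61 (adjusted p 0.0107 and 0.000484). Me1, malic enzyme, fell by 0.79 ± 0.19 under VEH (adjusted p 0.00855). Pgls of the pentose phosphate pathway rose by 0.70 ± 0.23 and 0.77 ± 0.23 (adjusted p 0.0363 and 0.018). Gpx3 and Txnrd1 both encode selenoproteins. The 10 genes listed around selenoprotein synthesis include Selenop, Selenow and Selenof, which encode selenoproteins themselves. Of these 10 genes, 0 were higher and 2 lower under VEH (median -0.07) and 2 higher and 2 lower under HDM (median 0.03). The same shares of all genes stand beside these counts. Selenop, the plasma selenium carrier, fell by 2.5 ± 0.33 and 2.28 ± 0.33 (adjusted p 0.000598 and 0.000402).

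The genes most like a member across the 12 libraries were taken from 12290 named genes with an average log2 CPM of at least 3, by Pearson's r of log2 CPM. The libraries share the split by tissue, so these values describe that split as well. Gpx3 was most like Sardh (0.994), Cers4 (0.993) and Coro2b (0.993). Gclc was most like Apbb1 (0.991) and Elmo3 (0.991), and Gclm was most like Clba1 (0.988), Mmp11 (0.977) and Fsd1l (0.973). Srxn1 was most like Glmn (0.989), Abtb3 (0.984) and Slc25a24 (0.984), and Hmox1 most like Ndrg1 (0.950), Dab2 (0.931) and Gm17035 (0.919). Nfe2l2, Keap1 and Slc7a11 had no gene above 0.91.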
